A study of Mus musculus with 4 samples.

Results

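C-type lectin receptors of myeloid cells were examined in tumor-associated macrophages (TAMs) from murine neuroblastomas. The 10 genes, *Clec7a*, *Clec4n*, *Clec4e*, *Clec4d*, *Clec4a1*, *Clec4a2*, *Clec4a3*, *Clec5a*, *Clec12a* and *Clec1b*, were taken by matching Ensembl gene identifiers to symbols, out of 54532 genes in the count table. The rows were found by symbol alone, although the list of receptors was drawn up with earlier results of these data known. TAMs came from tumors of NB9464, a murine neuroblastoma line with amplified *MYCN*, collected on day 40 after the cells had been injected under the skin of C57BL/6 mice aged 4 to 6 weeks. One group of 2 libraries is labelled SYK WT (M7 and M8) and the other group of 2 is labelled SYK KO (M9 and M10). The knockout strain carries floxed *Syk* and a Cre recombinase driven from the lysozyme M locus, which is active in macrophages, monocytes and neutrophils, so deletion is not limited to TAMs. The labels give no treatment. The title of the deposited series also names an adoptive transfer experiment, which the sample labels do not describe, so it is not settled which cells the genotype labels refer to. The comparison asks how loss of *Syk* in myeloid cells changed TAM transcripts. TAMs were enriched with magnetic beads against CD11b and F4/80, the same labels also mention bone marrow-derived macrophages at the RNA step, and nothing in them says whether 2 libraries of a genotype came from separate animals. The p-values therefore measure the spread between these libraries, which may be technical.

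Myeloid C-type lectin receptors bind sugars, lipids and crystals on microbes, dying cells and other cells. Activating members reach the kinase SYK through a tyrosine motif of their own (*Clec7a*, *Clec1b*) or through the adaptors FcRγ (*Clec4n*, *Clec4e*, *Clec4d*) and DAP12 (*Clec5a*). For several of these receptors, though not all, SYK then signals through CARD9 to NF-κB. Inhibitory members such as *Clec4a2* and *Clec12a* carry an inhibitory tyrosine motif that recruits the phosphatases SHP-1 and SHP-2.

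All 10 genes lie on chromosome 6, and the 250 bases before the transcription start were read for 9 of them from RefSeq (GRCm38.p6, 11 windows; no window was matched for *Clec4n*). Examples are shown because most of these genes are neighbors that were called higher together. The letters GAGGAA or TTCCTC, the core recognised by the myeloid factor PU.1 read on both strands, were in the windows of 7 of the 9 genes (8 of 11 windows) and in 23.3% of all 32851 windows of this length. The window of *Clec4e* (chr6:123289872-123290121, minus strand) holds the core 123 and 56 bases before the start, and that of *Clec7a* (chr6:129472780-129473029, minus strand) holds it 96 bases before the start. The window of *Clec1b* (chr6:129397047-129397296, plus strand) does not hold these letters. Each is intergenic in GENCODE M21 and is written 5′ to 3′ along its gene, with the core in capitals:
Clec4e: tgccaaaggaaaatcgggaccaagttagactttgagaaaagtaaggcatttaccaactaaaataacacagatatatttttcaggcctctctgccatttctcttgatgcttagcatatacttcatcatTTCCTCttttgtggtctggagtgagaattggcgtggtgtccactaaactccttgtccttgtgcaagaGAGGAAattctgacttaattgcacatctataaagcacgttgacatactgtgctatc
Clec7a: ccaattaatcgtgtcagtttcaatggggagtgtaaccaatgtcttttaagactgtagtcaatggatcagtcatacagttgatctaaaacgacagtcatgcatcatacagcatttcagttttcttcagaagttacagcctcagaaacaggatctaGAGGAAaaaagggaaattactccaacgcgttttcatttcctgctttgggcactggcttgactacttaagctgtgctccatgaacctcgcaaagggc
Clec1b: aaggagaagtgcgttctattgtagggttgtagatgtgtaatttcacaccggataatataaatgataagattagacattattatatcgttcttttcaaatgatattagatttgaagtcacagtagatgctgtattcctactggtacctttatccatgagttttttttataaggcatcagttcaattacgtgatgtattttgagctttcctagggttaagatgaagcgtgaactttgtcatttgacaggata
Of other motifs, the C/EBP letters TTNNGNAA were in 5 of 11 windows against 36.8% of all, and the TATA letters TATAAA in 4 of 11 against 12.4%. A loosened form of the AP-1 letters, TGANTCA with any middle base, was in 1 of 11, that of *Clec12a*, against 6.75%. Each was read on both strands. The match in *Clec12a* reads TGAATCA, so it rests on the loosened middle base. All 250 bases of that window are exonic in GENCODE M21. A match of letters is a description and not a measured binding site.

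The targeted gene was examined first. *Syk* stood at 27.9 and 23.2 TMM-normalized CPM (read counts set relative to the library total after edgeR's TMM scaling) in M7 and M8, and at 196 and 160 CPM in M9 and M10. Its log2 fold change was 2.80 (SE 0.194, adjusted p = 0.000674, edgeR quasi-likelihood test with Benjamini-Hochberg adjustment), higher in the libraries labelled SYK KO. That direction turned with the scaling: relative to 10 macrophage markers the log2 fold change was -0.040 (adjusted p = 0.944), and relative to 6 pan-leukocyte genes and 4 monocyte markers *Syk* was called lower, at -0.83 (adjusted p = 0.0304) and -0.62 (adjusted p = 0.0123, edgeR). Under these scalings, in this order, 87.2%, 92.8% and 91.6% of all tested genes were called lower. The medians of all genes were -2.82, -3.6 and -3.4, so the values of *Syk* are relative to a shifted zero. A count over the whole gene does not show whether the floxed exons were missing, and directions below are those of the libraries as labelled. Library totals ran from 20755886 to 23518045 counts, and 3 counts, the smallest signal taken as detected, corresponded to 0.109 to 0.163 CPM by counting error alone. The share of mitochondrial counts was 2.20% and 2.34% in the WT-labelled and 6.00% and 15.9% in the KO-labelled libraries. Macrophage markers such as *C1qa* and *Csf1r* were present in all 4 libraries, but the 8 fibroblast markers summed to 12689 and 14596 CPM in M7 and M8 and 4094 and 5029 CPM in M9 and M10, whereas the 10 macrophage markers summed to 924, 629, 7382 and 4782 CPM in the same order. All 10 macrophage markers were higher and 5 of 8 fibroblast markers lower with an adjusted p under 0.05 in the KO-labelled libraries. In such bulk samples, fewer cells of a type and less RNA per cell cannot be told apart.

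Of the 10 receptors, 9 were higher in the KO-labelled libraries with an adjusted p under 0.05 (edgeR), and 0 were lower. At an unadjusted p under 0.05, 10 were higher and 0 lower, and the DESeq2 Wald test called 9 higher and 0 lower. No share of all genes is given for the unadjusted threshold or for DESeq2, so those counts have no background. The 10 log2 fold changes lay between 2.29 and 4.77, and their median was 3.26, beside a median of 0.02 over the 16451 genes that passed edgeR's expression filter. All 10 receptors passed that filter. Among all tested genes 22.7% were called higher and 16.7% lower by the adjusted p of edgeR. In all 10, both KO-labelled libraries lay above both WT-labelled libraries, as did 38.0% of all tested genes. The sum of the 10 was 97.5 and 76.9 CPM in M7 and M8 and 1174 and 753 CPM in M9 and M10. Within each genotype 1 library led: M9 was above M10 for 8 of 10 receptors (not *Clec12a* and *Clec1b*), and M7 was above M8 for 8 of 10 (not *Clec4e* and *Clec4d*).

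**Figure D1:**
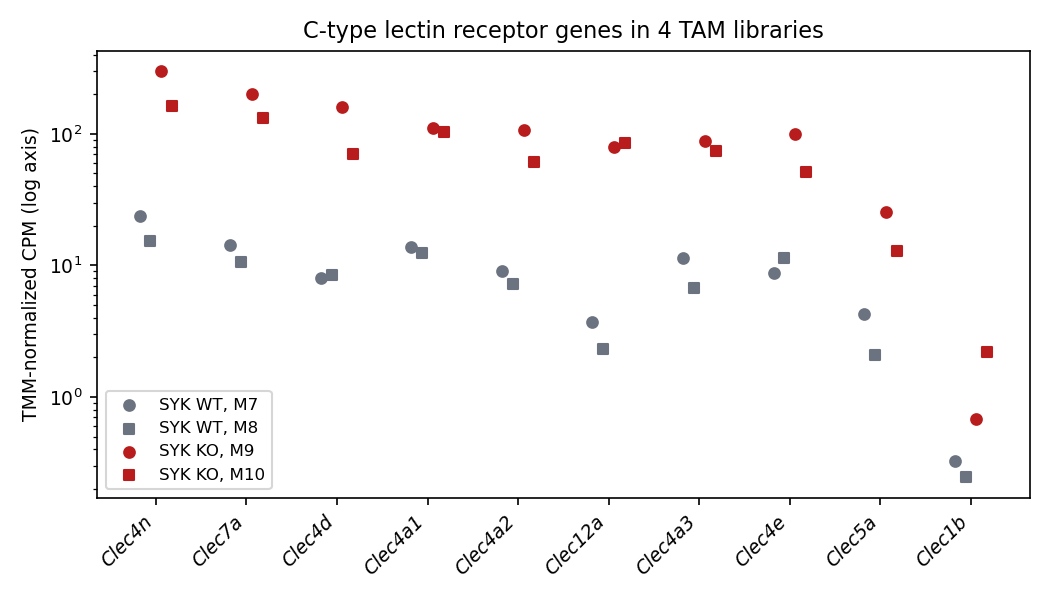
TMM-normalized CPM (log axis) of each receptor gene in the 4 libraries, grey for the libraries labelled SYK WT and red for those labelled SYK KO. Red points lie above grey points for all 10 genes, and the gap is widest for *Clec12a*, at 2.32 to 3.68 CPM against 79.9 to 84.8 CPM.

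Among the activating receptors, *Clec7a* (ENSMUSG00000079293, chr6:129461591-129472779, minus strand) encodes Dectin-1, the receptor for fungal beta-glucan. It had 395 and 260 counts in M7 and M8 and 4141 and 2402 in M9 and M10, or 14.4, 10.6, 201 and 131 CPM. The lower KO-labelled library was far above the higher WT-labelled one. The mean rose 13.3-fold, from 12.5 ± 2.70 to 166 ± 49.6 CPM (SD, n = 2), and the log2 fold change was 3.73 (SE 0.285, adjusted p = 0.000755, edgeR). GENCODE M21 gives this gene the biotype polymorphic pseudogene, and its counts were used as deposited.

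*Clec4n* (ENSMUSG00000023349, chr6:123229843-123247021, plus strand) encodes Dectin-2, which binds fungal mannans and signals through FcRγ. Its level was 23.8 and 15.3 CPM in M7 and M8 and 300 and 162 CPM in M9 and M10, the highest of the 10 genes in each library. The libraries of the 2 genotypes did not overlap, although M9 held 1.86 times the level of M10. The log2 fold change was 3.56 (SE 0.373, adjusted p = 0.00156, edgeR).

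*Clec4e* and *Clec4d* are neighbors that encode Mincle and MCL, partners in the recognition of mycobacterial glycolipids. *Clec4e* (ENSMUSG00000030142, chr6:123281789-123289870, minus strand) stood at 8.71, 11.4, 100 and 51.5 CPM in M7, M8, M9 and M10, a log2 fold change of 2.91 (SE 0.350, adjusted p = 0.00216, edgeR). *Clec4d* (ENSMUSG00000030144, chr6:123262111-123275265, plus strand) stood at 8.06, 8.46, 161 and 70.3 CPM, a log2 fold change of 3.81 (SE 0.409, adjusted p = 0.00161, edgeR). Both were several times higher in each KO-labelled library than in either WT-labelled one. *Clec4d* had the widest gap between the KO-labelled libraries among the 9 called genes, with M9 at 2.29 times M10. The partners did not keep one ratio: per kilobase of exons, *Clec4e* relative to *Clec4d* was -1.52 and -1.20 (log2) in M7 and M8 and -2.32 and -2.08 in M9 and M10, so that *Clec4d* rose by more than *Clec4e* in each KO-labelled library.

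*Clec5a* (ENSMUSG00000029915, chr6:40574894-40585821, minus strand) encodes MDL-1, which pairs with DAP12 and lies apart from the other 9 genes on the chromosome. It was lower than the preceding receptors, at 4.27 and 2.08 CPM in M7 and M8 and 25.6 and 12.9 CPM in M9 and M10. The genotypes did not overlap. The log2 fold change of 2.6 (SE 0.479, adjusted p = 0.00836, edgeR) was the smallest of the 9 called genes.

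*Clec1b* encodes CLEC-2, the podoplanin receptor best known from platelets, and was the receptor that did not pass the test. *Clec1b* (ENSMUSG00000030159, chr6:129397297-129409335, plus strand) had 9 and 6 counts in M7 and M8 and 14 and 40 counts in M9 and M10, or 0.328, 0.244, 0.680 and 2.18 CPM. The genotypes did not overlap, but M10 held most of the counts. The log2 fold change was 2.29 (SE 0.821, adjusted p = 0.0677, edgeR), and it was 1.24 without M10 and 2.81 (adjusted p = 0.00218) without M9. Over all settings tried, its adjusted p ran from 0.00218 to 0.784 (edgeR and DESeq2). Its annotation shares 474 bases with *Clec9a* on the same strand, so reads there could be assigned to either gene. Among platelet genes, the chemokines *Pf4* and *Ppbp* were higher in the KO-labelled libraries (log2 fold changes 3.19 and 5.0), while *Gp9* and *Treml1* did not exceed 0.436 CPM in any library. *Pdpn*, the gene of the CLEC-2 ligand podoplanin, stood at 8.90, 7.0, 130 and 59.3 CPM, a log2 fold change of 3.57 (adjusted p = 0.00182, edgeR).

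Among the inhibitory receptors and their relatives, *Clec12a* had the largest change of the 10. *Clec12a* (ENSMUSG00000053063, chr6:129342691-129365303, plus strand) encodes an inhibitory receptor for uric acid crystals. It had 101 and 57 counts in M7 and M8 and 1645 and 1557 in M9 and M10, or 3.68, 2.32, 79.9 and 84.8 CPM. The KO-labelled libraries were close to each other and both far above the WT-labelled ones. The mean rose 27.4-fold, from 3.0 ± 0.964 to 82.4 ± 3.52 CPM (SD, n = 2), with a log2 fold change of 4.77 (SE 0.260, adjusted p = 0.000486, edgeR).

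The 3 genes of the *Clec4a* group encode dendritic cell immunoreceptors, of which *Clec4a2* carries the inhibitory motif. *Clec4a1* (ENSMUSG00000049037, chr6:122921848-122934619, plus strand) was the steadiest, at 13.9, 12.5, 110 and 104 CPM in M7, M8, M9 and M10, and its log2 fold change was 3.02 (SE 0.165, adjusted p = 0.000486, edgeR). *Clec4a3* (ENSMUSG00000043832, chr6:122952515-122969875, plus strand) stood at 11.4, 6.71, 88.5 and 73.6 CPM, a log2 fold change of 3.16 (SE 0.284, adjusted p = 0.00103, edgeR). The KO-labelled libraries of both genes lay close together and above both WT-labelled libraries. *Clec4a2* (ENSMUSG00000030148, chr6:123106428-123143999, plus strand) stood at 9.08, 7.28, 107 and 61.5 CPM, a log2 fold change of 3.36 (SE 0.310, adjusted p = 0.00111, edgeR). *Clec4a2* also showed no overlap of genotypes, with more spread between M9 and M10. Of the 31-base words in the transcripts of *Clec4a2*, 10.3% also occur in other genes, 482 in all. The gene with the largest part was the paralog *Clec4a4*, at 4.96%, which had at most 8 counts in any library. The share of words found in any other gene was at most 3.64% in each of the other 9 receptors. It was 0% in *Clec4a1*, *Clec4d*, *Clec4e* and *Clec5a*. With words of 75 bases the share was 3.24% in *Clec4a2* and 0% in *Clec4a1* and *Clec4a3*. The sum of *Clec4a1*, *Clec4a2* and *Clec4a3* was 34.3 and 26.5 CPM in M7 and M8 and 305 and 239 CPM in M9 and M10. It does not depend on how reads were divided among these 3 genes, but it does not cover reads shared with other genes such as *Clec4a4*.

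Levels of different genes were compared per kilobase of annotated exons. *Clec4n* was the highest, at a mean of 13.8 CPM per kb in the WT-labelled and 163 CPM per kb in the KO-labelled libraries, and made up 27.7% to 35% of the 10 receptors' summed level in every library. *Clec4a1* (8.45 and 68.5 CPM per kb), *Clec4a3* (6.82 and 61.1), *Clec4d* (5.17 and 72.4) and *Clec7a* (4.73 and 62.9) followed, and neighbors in the order of these 4 differed by less than the SD of the more variable gene in both genotypes. *Clec4a2* came next (2.80 and 28.8 CPM per kb). In the order of the WT-labelled libraries, *Clec4e* (2.03 and 15.3), *Clec5a* (0.826 and 5.02) and *Clec12a* (0.543 and 14.9) followed. *Clec1b* was last (0.0561 and 0.280). In the KO-labelled libraries *Clec12a* stood above *Clec5a*. By this length *Clec5a* and *Clec12a* did not differ beyond their spread in the WT-labelled libraries, nor did *Clec4e* and *Clec12a* in the KO-labelled ones. The share of *Clec12a* in the summed level of the 10 was 1.30% and 1.08% in M7 and M8 and 2.39% and 4.04% in M9 and M10. Its annotated exons span 5528 bases and its longest transcript 3233 bases, and by the latter length its mean in the KO-labelled libraries was 25.5 CPM per kb, above *Clec4e* (15.8 ± 7.14 CPM per kb, SD, n = 2), and in the WT-labelled libraries it was 0.928 CPM per kb beside 0.846 for *Clec5a*. The place of *Clec12a* in the order thus depended on the length used and differed between the genotypes.

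The receptors were then set against the macrophage content of each library. When the fit was scaled so that the geometric mean of the 10 macrophage markers was equal in all libraries, 1 of 10 receptors, *Clec12a*, was called higher and 0 were called lower. In that fit 0.687% of all tested genes were called higher and 87.2% lower. The receptors' median log2 fold change was 0.42 and that of all genes was -2.82. *Clec12a* had a log2 fold change of 2.01 (SE 0.584, adjusted p = 0.000829, edgeR), *Clec7a* 0.88 (SE 0.527), *Clec4d* 0.85 (SE 0.537) and *Clec4n* 0.70 (SE 0.526). Scaling to 6 pan-leukocyte genes or 4 monocyte markers also left *Clec12a* as the 1 receptor called higher, with 0 lower, at log2 fold changes of 1.20 and 1.36, where 0.334% and 0.48% of all genes were called higher and 92.8% and 91.6% lower. The receptors' medians were then -0.37 and -0.17.

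**Figure D2:**
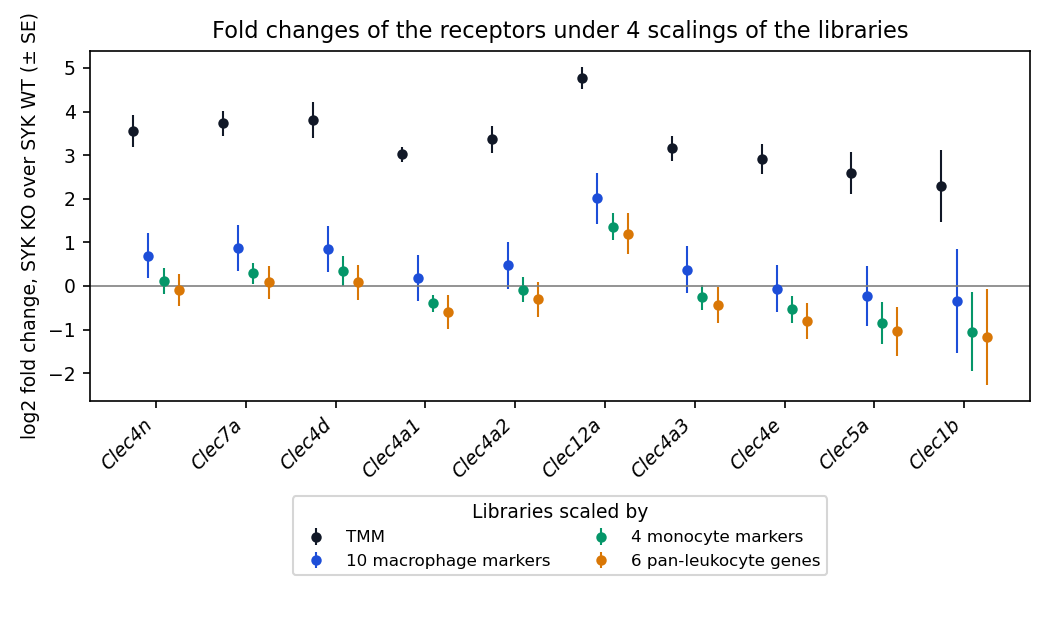
Log2 fold change (± SE) of each receptor, libraries labelled SYK KO over SYK WT, with libraries scaled by TMM (black), 10 macrophage markers (blue), 4 monocyte markers (green) or 6 pan-leukocyte genes (orange). The TMM values run from 2.29 to 4.77, whereas under the marker scalings the points of 9 genes lie between -1.16 and 0.88 and *Clec12a* lies between 1.20 and 2.01.

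Ratios were also formed within each library, which need no scaling between libraries. The log2 ratio of *Clec12a* to the geometric mean of the macrophage markers was -4.10 and -4.15 in M7 and M8 and -2.48 and -1.82 in M9 and M10. Both KO-labelled libraries were thus well above both WT-labelled ones. For *Clec7a* the ratios were -2.13 and -1.96 against -1.14 and -1.19, again without overlap. For *Clec4e* they were -2.85 and -1.85 against -2.15 and -2.54, with overlap. In all, both KO-labelled libraries were above both WT-labelled ones for 6 of the 10 receptors (*Clec7a*, *Clec4n*, *Clec4d*, *Clec4a2*, *Clec4a3* and *Clec12a*) and below for 0, while 2.72% of all tested genes were above and 92.3% below. Against the pan-leukocyte genes, 1 receptor (*Clec12a*) was above and 6 were below, where 1.04% of all tested genes were above and 95.9% below. Against the monocyte markers, 1 receptor (*Clec12a*) was above and 3 were below, where 1.33% of all tested genes were above and 95.1% below. No test was made of these ratios, since with 2 libraries in each genotype the smallest p of an exact two-sided permutation test is 0.33.

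**Figure D3:**
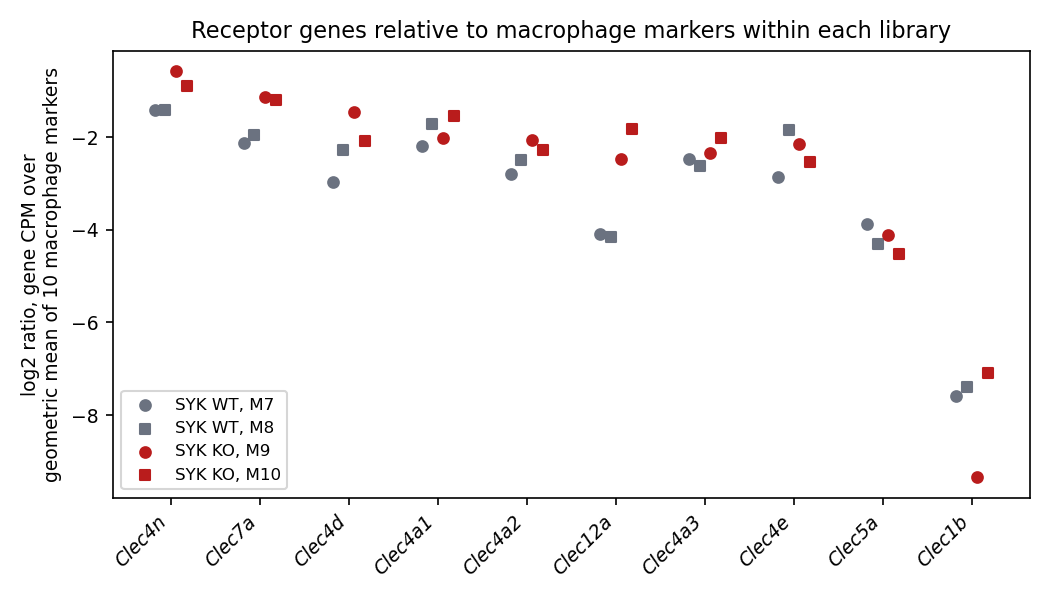
Log2 ratio of each receptor's CPM to the geometric mean of 10 macrophage markers in the same library, for libraries labelled SYK WT (grey) and SYK KO (red). *Clec12a* moves from -4.15 and -4.10 to -2.48 and -1.82, while the points of *Clec4e*, *Clec4a1*, *Clec5a* and *Clec1b* overlap between genotypes.

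Receptors were also compared with each other within each library. Of the 45 pairs of receptors, 25 had ratios that did not overlap between genotypes and 20 overlapped. The pairs share their genes, and no share over pairs of all tested genes was formed. These counts, and those below for *Clec7a*, *Clec5a* and *Clec4e*, are therefore descriptions without a background. *Clec12a* rose relative to each of the other 9 receptors in both KO-labelled libraries, as did 0.632% of all tested genes. *Clec7a* rose relative to 6 and fell relative to 1. *Clec5a* fell relative to 6 and *Clec4e* relative to 5, and neither rose relative to any. The log2 ratio of *Clec7a* to its neighbor *Clec12a* per kilobase went down from 3.03 and 3.26 in M7 and M8 to 2.40 and 1.69 in M9 and M10.

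The genes form 2 groups on the chromosome. An interval of 368.0 kb (chr6:122921848-123289870) holds 13 annotated genes, of which 7 passed the filter and all 7 were called higher: the 6 receptors *Clec4a1*, *Clec4a3*, *Clec4a2*, *Clec4n*, *Clec4d* and *Clec4e*, and *Clec4b1*, another lectin of this cluster, which stood at 0.365, 0.692, 12.9 and 9.10 CPM. Of the interval of 130.1 kb from *Clec12a* to *Clec7a* (chr6:129342691-129472779), 5 of 7 genes passed and 2 were called higher, *Clec12a* and *Clec7a*. Between them, *Clec1b*, *Clec9a* of cross-presenting dendritic cells (log2 fold change 2.3, adjusted p = 0.0582, edgeR) and *Clec1a* of endothelial cells (-1.09, adjusted p = 0.189, edgeR) did not pass the test.

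**Figure D4:**
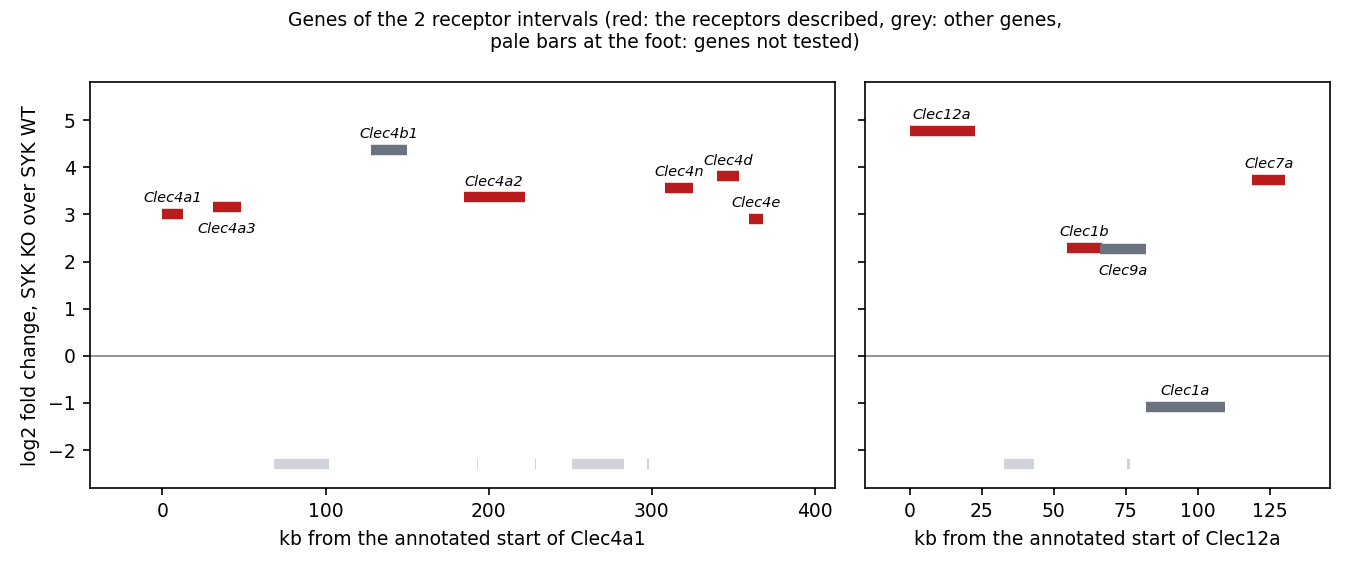
Log2 fold change of the genes in the 2 intervals against the distance in kb from the annotated start of the first gene, with 9 of the receptors in red (*Clec5a* lies elsewhere), other tested genes in grey and untested genes as pale bars at the foot. All 7 tested genes of the *Clec4* interval lie between 2.91 and 4.37, whereas the other interval runs from -1.09 (*Clec1a*) to 4.77 (*Clec12a*).

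The partners of the receptors were examined next. All 3 adaptors were called higher in the KO-labelled libraries, and the median log2 fold change was 3.21. *Fcer1g*, the gene of FcRγ, stood at 53.1, 37.1, 628 and 498 CPM in M7, M8, M9 and M10 (log2 fold change 3.64, adjusted p = 0.000716, edgeR), and *Tyrobp*, the gene of DAP12, at 36.2, 27.6, 377 and 215 CPM (3.21, adjusted p = 0.00136, edgeR). *Hcst*, the gene of DAP10, was far lower, at 0.693, 0.407, 5.10 and 3.81 CPM. Relative to the geometric mean of these adaptors within a library, 3 receptors (*Clec7a*, *Clec4n* and *Clec12a*) were above in both KO-labelled libraries and 2 (*Clec5a* and *Clec1b*) below, where 1.62% of all tested genes were above and 94.6% below.

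Of 13 kinase and relay genes, 9 were higher and 0 lower, with a median of 0.80. *Vav1*, an exchange factor of blood cells, stood at 8.57, 5.74, 99.0 and 63.7 CPM (log2 fold change 3.50), and *Card9*, the relay to NF-κB, at 4.48, 3.95, 17.7 and 17.1 CPM (2.04, adjusted p = 0.00221, edgeR). *Nfkb1*, a subunit gene of NF-κB, stood at 93.6, 106, 110 and 128 CPM and did not pass the test (0.25). Of the 3 phosphatases that inhibitory receptors recruit, *Ptpn6* (SHP-1; 16.5, 16.6, 184 and 147 CPM, log2 fold change 3.32) and *Inpp5d* (SHIP-1; 18.4, 25.6, 199 and 127 CPM, 2.89) were higher, and *Ptpn11* (SHP-2; 124, 109, 107 and 101 CPM, -0.16) did not pass the test.

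Of 14 genes known to be induced by these receptors, 12 were tested, 10 were higher and 1 lower, with a median of 2.72. The chemokine gene *Cxcl2* stood at 70.6, 87.7, 1401 and 729 CPM (log2 fold change 3.75) and *Il1b*, the gene of interleukin-1 beta, at 23.5, 28.2, 479 and 276 CPM (3.87), while *Egr3*, a transcription factor gene, was lower (25.7, 23.6, 9.32 and 12.9 CPM, -1.15, adjusted p = 0.0112, edgeR). The 5 tested neutrophil markers were all higher, and the 6 neutrophil markers summed to 24.6, 39.3, 407 and 201 CPM, with *Ly6g* at or below 0.243 CPM in every library. The 4 monocyte markers were all higher and summed to 18.8, 21.3, 250 and 233 CPM, and of 5 tested dendritic cell markers 4 were higher, with a summed level of all 6 of 14.7, 11.4, 43.8 and 45.1 CPM. Neutrophils, monocytes and dendritic cells also express several of these receptors and induced genes, and their part in the differences was not tested. Of 3 ligand genes, 2 were higher, and *Sap130*, whose protein is a ligand of Mincle, did not pass the test (64.5, 62.3, 58.1 and 71.8 CPM, 0.03).

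Of 17 other lectins of macrophages and dendritic cells, 12 were tested, 8 were higher and 1 lower, and the median log2 fold change was 2.39. *Mrc1*, the macrophage mannose receptor, had the highest level of them, at 238, 184, 1914 and 908 CPM (log2 fold change 2.74, adjusted p = 0.00375, edgeR). *Clec4b1* had the largest change (4.37, adjusted p = 0.00163, edgeR), and *Ly75*, the endocytic receptor DEC-205, was the gene that fell (65.6, 64.3, 16 and 25.4 CPM, -1.65, adjusted p = 0.00397, edgeR). Of 9 lectin-domain genes of stromal and endothelial cells, 3 were higher and 2 lower, with a median of -0.59. Scaled to the macrophage markers, 0 of the adaptors were called in either direction, and of the 13 kinase and relay genes 0 were higher and 9 lower. In that fit 0.687% of all tested genes were called higher and 87.2% lower.

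**Figure D5:**
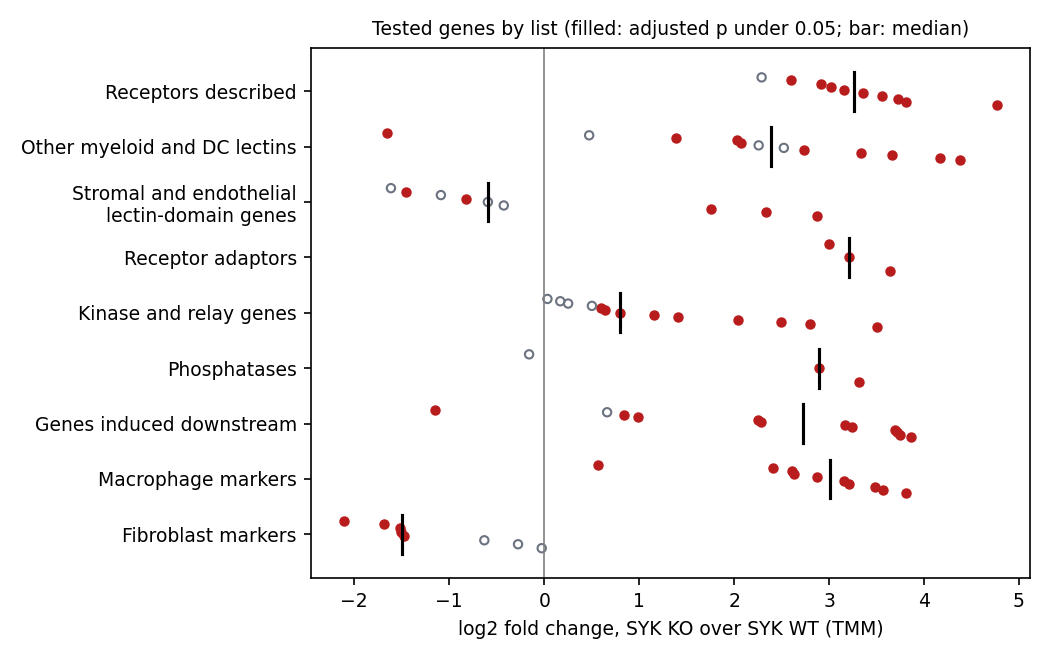
Log2 fold change (TMM scaling, libraries labelled SYK KO over SYK WT) of each tested gene by list, filled where the adjusted p was under 0.05, with a bar at the median. The receptors (median 3.26) lie near the adaptors (3.21) and the macrophage markers (3.01), and the fibroblast markers lie below 0 (median -1.49).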

How the data were processed

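Transcripts were measured in 2 libraries labelled SYK WT and 2 labelled SYK KO. Groups and library names were taken from the sample labels. The authors deposited whole-number read counts per Ensembl gene, not normalized. Per the labels the libraries were polyA-enriched and sequenced as paired reads of 150 bases, and the submitters' processing notes name mm10, STAR 2.6.1d, Salmon 1.4.0, SAMtools 1.9, Picard 2.26 and MultiQC 1.11. Salmon can split reads between paralogs, and the step from its output to whole numbers is not given in the sources used here. The study's methods describe triplicate single reads, so the labels were followed. No deposited column was left unused.

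GENCODE M21 (GRCm38) gave symbols, positions and exon lengths for 54495 of 54532 genes. Counts were analysed in R 4.3.3 with edgeR 4.0.16 (filterByExpr, TMM, glmQLFit and glmQLFTest, not robust) over all genes; p-values were adjusted by Benjamini-Hochberg and 0.05 was the threshold. The TMM factor was 1.22 for M7, 1.19 for M8, 0.876 for M9 and 0.787 for M10. Libraries within a genotype were not duplicates of each other (chi-square per degree of freedom 50.6 for SYK WT and 168 for SYK KO). The test was tried on simulated counts with 200 changed genes. The floor of 3 counts reflects counting error alone, since no molecular identifiers marked single molecules.

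The 10 receptors and all other lists were chosen with earlier results of these data known. The genes named besides the receptors were *Syk*, the adaptors, *Card9*, the phosphatases, *Pdpn*, and from each other list of lectins, relay, induced and ligand genes the one with the highest CPM and those with the largest and smallest change, except an item that is not reported here. Other genes were named after their values were seen: *Clec9a* and *Clec1a*, which lie between receptors, and the marker genes *C1qa*, *Csf1r*, *Pf4*, *Ppbp*, *Gp9*, *Treml1* and *Ly6g*. Scaling to monocyte markers, and leaving out each library under the macrophage scaling, were added after the data were seen. Alternatives included the Wald test of DESeq2 1.42.0. Ratios were formed within libraries, and k-mers of 31 and 75 bases were compared between annotated transcripts. Protein sequences were not used here.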

Additional observations from a re-analysis of the deposited data

How the results depend on the processing

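With 2 libraries per genotype and no stated animals or batches, the error rests on the model fitted across genes, and genotype cannot be told apart from anything else that differed between the libraries, such as fibroblast and mitochondrial RNA. No paired analysis was possible because the genotypes share no replicate number (7 and 8 against 9 and 10).

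The number of receptors called higher was 9, and it stayed at 9 or 10 in every setting except the marker scalings, where it was 1 (macrophage, pan-leukocyte and monocyte markers). The number called lower was 0 throughout. No share of all genes is given for settings other than TMM and the marker scalings, so the counts under those other settings have no background. Leaving out 1 library at a time, the number higher ran from 9 to 10 and the number lower from 0 to 0.

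Under the macrophage, pan-leukocyte and monocyte scalings, in this order, 0 of the other myeloid lectins, stromal lectin-domain genes, adaptors, relay genes, phosphatases, induced genes and ligand genes were called higher, and 3, 5 and 4 of the other myeloid lectins, 7, 8 and 8 of the stromal lectin-domain genes, 9, 12 and 12 of the relay genes, 1, 2 and 1 of the phosphatases, 4, 5 and 5 of the induced genes and 2, 2 and 2 of the ligand genes were called lower. Of all tested genes, 87.2%, 92.8% and 91.6% were called lower under these scalings. No such share is given by library size only or with a library left out, so the counts that follow have no background. By library size only, 5 relay genes and 1 ligand gene were called higher and 4 stromal lectin-domain genes and 1 phosphatase lower. With each library left out, 0 to 4 stromal lectin-domain genes and 0 to 1 induced genes were lower, and 1 to 2 ligand genes were higher.

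The median log2 fold change of all genes was 0.02 under TMM, -0.52 by library size only, and -2.82, -3.60 and -3.40 under the macrophage, pan-leukocyte and monocyte scalings, so a negative value there is relative to a shifted zero. In relation to the median gene, *Clec12a* was at 4.75 under TMM and at 4.83, 4.80 and 4.76 under these scalings. Leaving out 1 library at a time, its macrophage-scaled value lay between 1.65 and 2.30 (adjusted p 0.0105 to 0.0438, edgeR).

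Signs turned in these cases. Scaled to macrophage markers, the log2 fold change was -0.062 for *Clec4e*, -0.23 for *Clec5a*, -0.35 for *Clec1b*, -0.040 for *Syk*, -0.78 for *Card9*, -2.59 for *Nfkb1*, -0.061 for *Inpp5d*, -0.17 for *Mrc1*, -0.43 for *Clec9a* and -2.77 for *Sap130*. Scaled to pan-leukocyte genes it was -0.10 for *Clec4n*, -0.81 for *Clec4e*, -0.60 for *Clec4a1*, -0.31 for *Clec4a2*, -0.44 for *Clec4a3*, -1.04 for *Clec5a*, -1.16 for *Clec1b*, -0.83 for *Syk*, -0.45 for *Tyrobp*, -0.60 for *Hcst*, -0.13 for *Vav1*, -1.57 for *Card9*, -3.36 for *Nfkb1*, -0.33 for *Ptpn6*, -0.81 for *Inpp5d*, -0.95 for *Mrc1*, -1.24 for *Clec9a*, -0.12 for *Pdpn* and -3.56 for *Sap130*. Scaled to monocyte markers it was -0.54 for *Clec4e*, -0.40 for *Clec4a1*, -0.082 for *Clec4a2*, -0.26 for *Clec4a3*, -0.85 for *Clec5a*, -1.05 for *Clec1b*, -0.62 for *Syk*, -0.23 for *Tyrobp*, -0.41 for *Hcst*, -1.37 for *Card9*, -3.16 for *Nfkb1*, -0.11 for *Ptpn6*, -0.55 for *Inpp5d*, -0.71 for *Mrc1*, -1.09 for *Clec9a* and -3.37 for *Sap130*. By library size only it was -0.29 for *Nfkb1* and -0.51 for *Sap130*. *Sap130* was at -0.0094 with DESeq2 size factors, -0.0183 by the DESeq2 Wald test, -0.0329 with at least 10 counts in every library, and -0.0532 without mitochondrial and rRNA-like genes. With a library left out, *Sap130* ran from -0.1121 to 0.0913. The cause of these turns beyond the moved zero was not tested.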
